A study of Mus musculus with 5 samples.

Results

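The sphingosine-1-phosphate receptors S1pr1, S1pr2, S1pr3, S1pr4 and S1pr5 are 5 of the 22380 protein-coding genes of the mouse annotation GENCODE vM1. They were taken by name, as the cell surface receptors of the lipid that the enzyme SPL breaks down, and each was examined for H3K9ac peaks centred within 10 kb of any of its transcription start sites. STHdh Q111 cells are an immortalized line of mouse striatal progenitors in which both huntingtin alleles are mutant (STHdhQ111/Q111, strain C57BL/6), and both conditions below were kept in serum-free medium for 24 h. Chromatin bound by an antibody to histone H3 acetylated at lysine 9 was sequenced from 2 samples of cells given the SPL inhibitor 4-deoxypyridoxine (DOP) at 4 mM for that time. The untreated condition, also 2 samples, received the vehicle (SST in the labels), and 1 sample of untreated cells was precipitated with IgG. Nothing states that the 2 samples of a condition came from separate cultures, and the cells are 1 line of 1 genotype. The authors deposited 1 list of peaks per condition, with 34286 peaks for DOP-treated and 33355 for untreated cells, so a difference between the lists has no replicate check and no p-value is given.

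Sphingosine-1-phosphate (S1P) is made inside cells by sphingosine kinases, is carried out of the cell, and signals from outside through these G protein-coupled receptors. It also has targets within the cell, among them histone deacetylases in the nucleus. The receptors differ in the G proteins they couple to and in where they are known for acting: S1pr1 in vessel maturation and lymphocyte egress, S1pr2 and S1pr3 in many tissues through cytoskeletal and calcium signals, S1pr4 in blood cells, and S1pr5 in oligodendrocytes and natural killer cells. H3K9ac is a mark of active promoters, where it lies mostly on the nucleosomes that flank the start site.

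A peak of either list was found within 10 kb of a start site at 4 of the 5 receptors, S1pr1, S1pr2, S1pr4 and S1pr5, and at S1pr3 there was none. The same 4 receptors met this criterion with and without DOP. Among all protein-coding genes 57.7% had a DOP-treated peak and 56.9% an untreated peak in this window. The peaks of S1pr4 and S1pr5, however, were all nearer to the start site of a neighbouring gene. Only S1pr1 and S1pr2 had peaks nearest to their own start, which is 2 of 5 receptors in each list, against 52.3% of all genes with DOP and 51.4% without. With a window of 1 kb these 2 receptors were again the only ones with a peak, where all genes gave 51.4% and 50.8%. The receptors thus held 11 DOP-treated peaks, of which 5 belonged to a receptor's own start and 6 to another gene's, and 10 untreated peaks, of which 5 and 5.

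**Figure D1:**
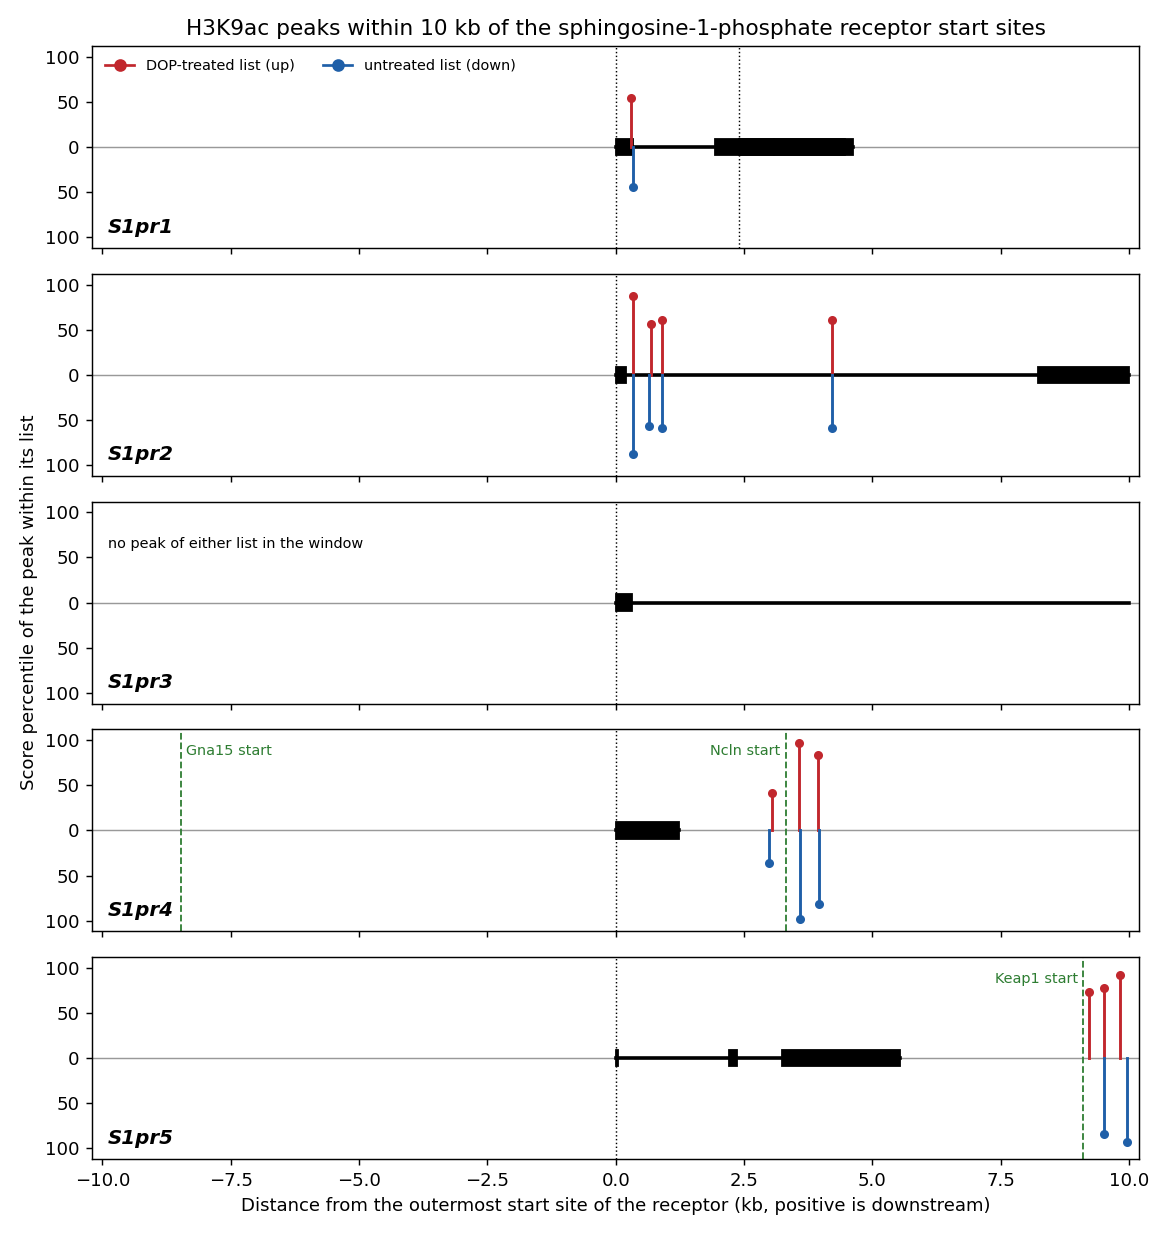
Peaks of the DOP-treated list (red, upward) and of the untreated list (blue, downward) against the distance from each receptor's outermost start site in kb, with the height of each stem giving the percentile of the peak's score within its own list. Black boxes are exons, dotted lines the receptor's start sites and green dashed lines the nearest start within the window of another protein-coding gene; the peaks of S1pr1 and S1pr2 follow their own start, those of S1pr4 and S1pr5 lie about the starts of Ncln and Keap1, and S1pr3 has none.

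RefSeq promoters (assembly GRCm38.p6) were matched by symbol for 4 of the 5 receptors, S1pr2, S1pr3, S1pr4 and S1pr5, and each was found exactly once on its chromosome in mm9. The 250 bases upstream of the RefSeq start are printed 5′ to 3′ on the strand of the gene, with GC boxes (GGGCGG on either strand, the site of Sp1 family factors) in capitals. They lie at chr9:20781238-20781487 for S1pr2, chr13:51503737-51503986 for S1pr3, chr10:80962883-80963132 for S1pr4 and chr9:21052888-21053137 for S1pr5, of which S1pr3 is on the plus strand and the others are on the minus strand.
S1pr2: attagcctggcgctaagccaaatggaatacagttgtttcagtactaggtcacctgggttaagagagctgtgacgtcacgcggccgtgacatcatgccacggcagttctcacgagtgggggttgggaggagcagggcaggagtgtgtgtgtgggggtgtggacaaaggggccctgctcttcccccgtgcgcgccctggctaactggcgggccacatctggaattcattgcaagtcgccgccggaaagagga
S1pr3: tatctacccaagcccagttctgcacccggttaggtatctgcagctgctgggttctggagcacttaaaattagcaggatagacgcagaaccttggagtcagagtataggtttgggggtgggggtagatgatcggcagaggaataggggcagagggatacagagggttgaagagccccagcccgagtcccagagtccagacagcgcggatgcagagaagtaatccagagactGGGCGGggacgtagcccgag
S1pr4: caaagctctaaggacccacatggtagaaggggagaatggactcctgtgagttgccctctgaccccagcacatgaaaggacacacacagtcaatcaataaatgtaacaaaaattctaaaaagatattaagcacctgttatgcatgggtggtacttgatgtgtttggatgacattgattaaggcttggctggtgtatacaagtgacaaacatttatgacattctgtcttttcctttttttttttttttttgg
S1pr5: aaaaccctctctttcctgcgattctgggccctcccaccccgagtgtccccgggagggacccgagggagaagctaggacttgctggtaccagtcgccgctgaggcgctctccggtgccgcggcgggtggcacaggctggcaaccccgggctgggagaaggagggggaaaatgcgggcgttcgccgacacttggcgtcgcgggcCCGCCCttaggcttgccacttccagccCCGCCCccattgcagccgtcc

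The promoter of S1pr2, the receptor with most peaks of its own, held 14 CpG dinucleotides and no GC box. The S1pr5 promoter was the richest, with 22 CpG, a GC content of 69.2% and 2 GC boxes, which begin 48 and 21 bases before the start, and yet it carried no peak of its own in either list. The S1pr3 promoter held 9 CpG and 1 GC box that begins 20 bases before the start. The S1pr4 sequence had 0 CpG and a GC content of 38.8%, and its RefSeq start lies upstream of the GENCODE start that was used for the peaks, at an offset of -430 bp, so it does not describe the same place as the peaks' distances. A GC box was present in 32.7% of all 32851 promoter sequences of this length in the table. Neither CCAAT nor TATAAA was found on either strand in these 4 windows, where 33.8% and 12.4% of all promoters hold them. A match is only a description of these letters.

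S1pr1, the receptor that couples to inhibitory G proteins, lies at chr3:115413351-115417973 on the minus strand (ENSMUSG00000045092.6) and has 2 annotated start sites. It had exactly 1 peak in each list. The DOP-treated peak was centred 298 bp downstream of the outer start, at 115417675, with a score of 457, which is percentile 54.1 of its list. The untreated peak was centred 331 bp downstream, at 115417642, with a score of 348 and percentile 44.1. Both centres lay in the first exon, in the 5′ UTR, and they were 33 bp apart, so the intervals of 200 bp overlapped. The score is the authors' value, whose meaning the lists do not give, and it serves here to rank peaks within a list.

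S1pr1 stands far from other protein-coding genes, and within its window peaks were found at this place only. The nearest start of another protein-coding gene, that of A930005H10Rik, is 173075 bp upstream, and only the pseudogene Gm9889 starts close by, 95 bp upstream on the other strand. The next peak upstream of S1pr1 was 51265 bp away with DOP and 43719 bp away without, at percentiles 4.10 and 2.41. No peak was nearest to the inner start site. A single peak nearest to the gene's own start was found at 12.5% of all genes with DOP and at 12.0% without.

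S1pr2, whose receptor signals to the cytoskeleton through the G proteins of Gna12 and Gna13, lies at chr9:20770396-20781237 on the minus strand (ENSMUSG00000043895.5). It carried more H3K9ac peaks than any other receptor, 4 in each list, each of them nearest to its own start and each overlapping a peak of the other list. At least 4 peaks nearest to the gene's own start, overlapping or not, were found at 10.1% of all genes with DOP and at 9.83% without. The strongest was centred 329 bp downstream of the start with DOP and 331 bp downstream without. Its scores were 998.8 and 1005, at percentiles 87.1 and 88.0.

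The next S1pr2 peak was centred 685 bp downstream with DOP (score 477.1, percentile 56.1) and 658 bp downstream without (464.2, percentile 56.6). Another followed at 898 bp with DOP (522, percentile 60.2) and 908 bp without (488.8, percentile 59.0). These 3 peaks lie in the first part of the long first intron, beyond a first exon that is wholly 5′ UTR. The fourth was apart from them, deep in the same intron, 4218 bp from the start with DOP (532, percentile 61.1) and 4211 bp without (491, percentile 59.3). The second exon, which begins 8223 bp from the start and holds the coding sequence, held no peak centre.

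The strongest S1pr2 peak and the separate intronic one are printed from mm9 on the strand of the gene, with each CpG in capitals, since they are the best ranked and the most distant peaks of the receptor with most peaks of its own. The first is the DOP-treated interval chr9:20780809-20781008 and the second chr9:20776920-20777119.
S1pr2 peak near the start: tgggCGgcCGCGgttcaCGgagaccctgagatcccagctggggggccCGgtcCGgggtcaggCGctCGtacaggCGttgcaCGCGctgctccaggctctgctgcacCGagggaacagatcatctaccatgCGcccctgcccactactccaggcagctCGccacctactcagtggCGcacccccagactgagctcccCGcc
S1pr2 peak within the intron: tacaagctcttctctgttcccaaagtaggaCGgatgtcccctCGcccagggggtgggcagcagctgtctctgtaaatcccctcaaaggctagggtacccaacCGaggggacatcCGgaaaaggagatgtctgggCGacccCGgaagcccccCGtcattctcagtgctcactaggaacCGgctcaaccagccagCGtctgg

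The peak near the start held 16 CpG in its 200 bases and a GC content of 69.5%, and the one within the intron held 9 CpG. No S1pr2 peak was upstream of the start. The nearest upstream peak was 26192 bp away with DOP and 26247 bp without, at the start of Mrpl4, a mitochondrial ribosomal protein gene. S1pr1 shared this one-sided layout. Among all genes with peaks at their own start, 50.1% with DOP and 53.4% without had them downstream only. Over those genes the peak nearest to the start had a median position of 158 bp downstream with DOP and 159 bp without, whereas the peaks nearest to the starts of S1pr1 and S1pr2 were centred between 298 and 331 bp.

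S1pr3, which couples to the G proteins of Gnaq and Gna11 as well as to inhibitory ones, lies at chr13:51503987-51518166 on the plus strand (ENSMUSG00000067586.3) and had 0 peaks in each list. The absence extended well beyond the window. With DOP the nearest peaks were 205778 bp upstream, at Hist1h2al, and 228619 bp downstream, before Cks2. Without DOP the nearest was a weak peak 93603 bp upstream, outside protein-coding genes, with a score of 180 and percentile 22.3, and the nearest downstream peak was at 228609 bp. The next gene, the adaptor protein gene Shc3, starts 158466 bp away and thus lies in the same stretch without peaks. Within 100 kb, 80.0% of all genes had a DOP-treated peak and 79.7% an untreated one, and within 200 kb 87.0% and 86.8% did. The depth of the libraries is not known, so acetylation below the authors' threshold was not detectable here.

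S1pr4, a receptor mostly of blood cells, lies at chr10:80961223-80962452 on the minus strand (ENSMUSG00000044199.4) and consists of 1 exon. Its window held 3 peaks in each list, and each was nearest to Ncln, which encodes nicalin, a protein of the endoplasmic reticulum membrane, and starts 3315 bp downstream of the S1pr4 start, beyond its end. The highest had its centre 189 bp into Ncln with DOP and 214 bp without, in a coding exon of Ncln, with scores of 1595.2 and 1784.1 and percentiles of 97.3 and 98.2. This was the highest rank of any peak in the windows of the receptors. A second peak in an Ncln intron ranked at percentiles 83.1 and 81.8.

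The third peak of this window lies between the genes, 268 bp upstream of the Ncln start with DOP and 328 bp without, and is the one closest to S1pr4. It was centred 3047 bp from the S1pr4 start with DOP and 2987 bp without, and ranked lower, at percentiles 41.6 and 35.7. No peak centre lay within the transcribed length of S1pr4 or upstream of it within the window. The nearest upstream peaks were 44786 bp away with DOP and 44718 bp without, at Gna11. Gna15, a G protein gene of blood cells that starts inside the window 8466 bp upstream by its innermost annotated start, had none there either.

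S1pr5 lies at chr9:21047356-21052887 on the minus strand (ENSMUSG00000045087.8), 271650 bp from S1pr2 on the same chromosome. Its window held 3 DOP-treated and 2 untreated peaks at its far edge, all of them in the 5′ UTR of Keap1, the sensor gene of the oxidative stress response, which starts 9111 bp downstream of the S1pr5 start. The outermost was centred 9828 bp from the S1pr5 start with DOP and 9965 bp without, just inside the limit of 10 kb, with scores of 1214.5 and 1221.8 at percentiles 92.6 and 92.9. The middle peak had the same centre in both lists, 9512 bp away, with scores of 784.5 and 899.2 at percentiles 78.1 and 84.5.

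The third peak of this window, 9221 bp from the S1pr5 start and 110 bp into Keap1, was found with DOP only, with a score of 708 at percentile 73.9. It was the only receptor peak that overlapped none of the other list, and the nearest untreated centre was 291 bp away. On the outer side of the limit, the first peaks near S1pr5 were at Atg4d, 17071 bp upstream with DOP (score 731) and 16600 bp without (119.2). These are peaks at different places and not a pair. The DOP-treated one lies 215 bp from the Atg4d start in a coding exon, the untreated one 256 bp from it outside protein-coding genes. Within 20 kb S1pr5 had 4 peaks in each list. Over all receptors in that window, 12 of 13 DOP-treated peaks overlapped an untreated one, all but the unmatched Keap1 peak. The DOP-treated Atg4d peak thus had a counterpart, an untreated peak farther from S1pr5 than the one named. At S1pr4 the first peaks beyond the limit were 17173 and 17192 bp downstream, at Celf5 (241 and 213). S1pr1, S1pr2 and S1pr3 had none between 10 and 20 kb.

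**Figure D2:**
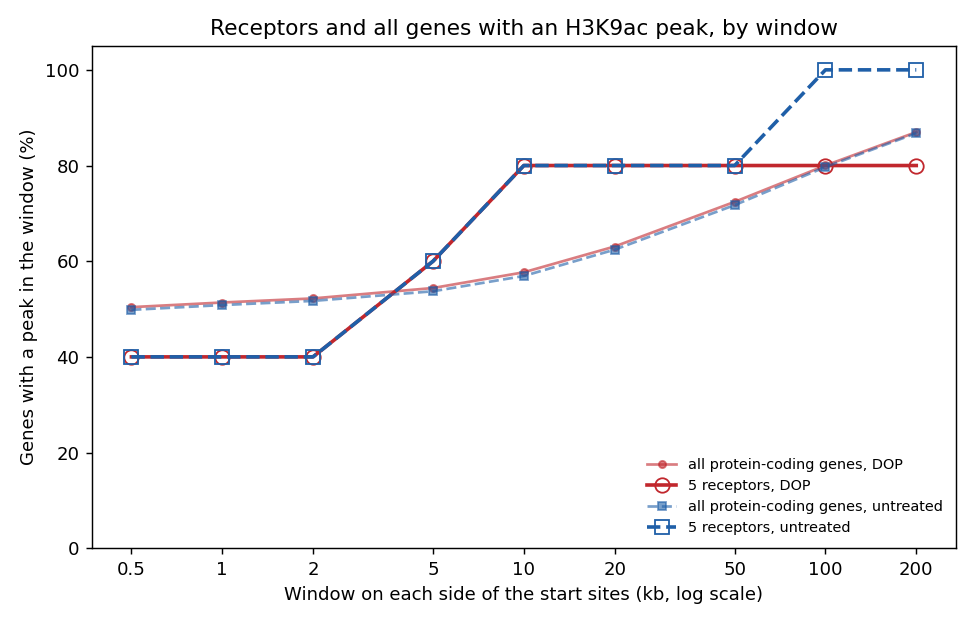
Share of the 5 receptors (large symbols) and of all 22380 protein-coding genes (small symbols) with at least 1 peak, in percent, against the window on each side of the start sites in kb on a log scale, for the DOP-treated (red) and untreated (blue) lists. The receptors stay at 2 of 5 up to 2 kb, reach 3 at 5 kb with the Ncln peaks and 4 at 10 kb with the Keap1 peaks, and S1pr3 joins at 100 kb in the untreated list only.

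The window is what set the count of receptors with a peak, as the plot of receptors by window shows. Up to 2 kb it was 2 of 5 in both lists, against 52.2% of all genes with DOP and 51.7% without, and at 5 kb it was 3, against 54.4% and 53.7%. From 10 kb to 50 kb it was 4, and over the same range the share of all genes rose to 72.4% and 71.7%.

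The comparison of the lists asks whether H3K9ac at the receptors differs after SPL inhibition, which blocks the breakdown of the lipid they bind. No receptor had peaks in 1 list only, where 4.01% of all genes did. S1pr1, S1pr2 and S1pr4 had equal numbers of peaks in the lists, and S1pr5 had 1 more with DOP, by the Keap1 peak named above. Over all genes 19.3% had more DOP-treated than untreated peaks and 16.9% had fewer. Counting an overlap of at least 1 bp, 10 of the 11 receptor peaks with DOP had a counterpart without it, and each of the 10 untreated receptor peaks had one with DOP. Only 5 peaks of each list, at S1pr1 and S1pr2, were nearest to a receptor's own start, and all 5 had a counterpart. The others were the peaks at Ncln and Keap1. Over all peaks centred within 10 kb of a protein-coding start, 83.8% of the 29561 with DOP and 86.7% of the 28989 without had such a counterpart, so the receptor peaks are near the usual share. The unmatched Keap1 peak counts as matched when centres within 500 bp are accepted, and where each peak of a pair must cover 50% of the other the outermost Keap1 pair is lost as well, which leaves 9 shared peaks in each list.

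**Figure D3:**
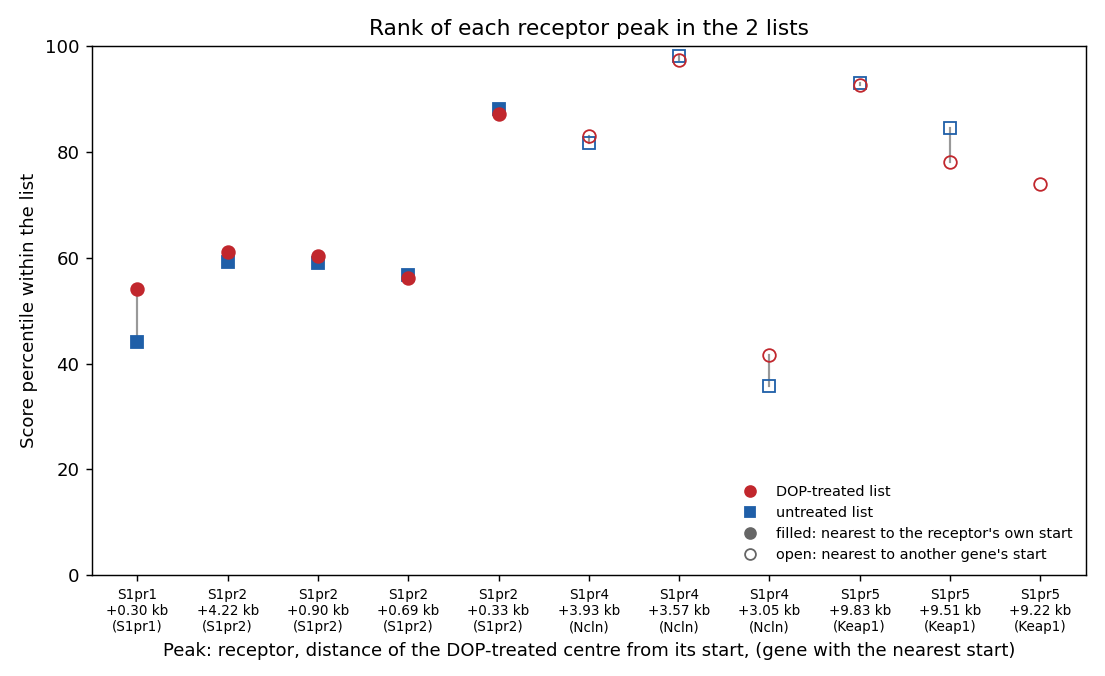
Score percentile of each receptor peak within the DOP-treated list (red circles) and within the untreated list (blue squares), with a grey line joining paired peaks. Filled symbols are peaks nearest to the receptor's own start and open symbols those nearest to another gene; the S1pr2 pairs almost coincide, the S1pr1 pair is 9.96 percentile points apart, and the last Keap1 peak has no untreated partner.

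Of the 10 pairs of peaks, 5 ranked higher with DOP and 5 lower. Among the 5 pairs nearest to a receptor's own start, 3 ranked higher with DOP and 2 lower. The centres of the 10 pairs were 0 to 137 bp apart, and the median over all 25377 paired peaks of the lists was 29 bp. The 4 pairs of S1pr2 differed by 0.558 to 1.84 percentile points, 2 in each direction, which is under the median difference of 5.10 points over all pairs. At S1pr1 the DOP-treated peak ranked 9.96 points above the untreated one, the largest difference among the receptors. A difference of at least this size in either direction was found for 27.5% of all pairs, and for 40.9% of the 2834 pairs whose mean rank was within 5 points of that of S1pr1. Over all pairs 59.0% ranked higher with DOP. The pairs at Ncln and Keap1 differed by 0.289 to 6.44 points. No error can be given for any of these differences, and a score percentile is not a read density.

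The base composition around the start sites places the receptors between the usual classes of promoter. In the 1001 bp centred on the outermost start, the ratio of observed to expected CpG was 0.584 at S1pr1, 0.561 at S1pr2, 0.558 at S1pr3, 0.464 at S1pr5 and 0.359 at S1pr4, and the median of all genes was 0.549. GC content lay between 57.8% and 60.4%. None of the 5 passed the limits of a CpG-rich promoter used here, a ratio above 0.6 with a GC content above 50%. Of the 9879 genes that did, 86.3% had a DOP-treated peak within 1 kb of that start, and of the 12501 others 18.9%. The untreated list gave 86.1% and 18.1%. S1pr2 and S1pr3 had almost the same ratio, and the one carried peaks while the other was without any for at least 93603 bp.

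**Figure D4:**
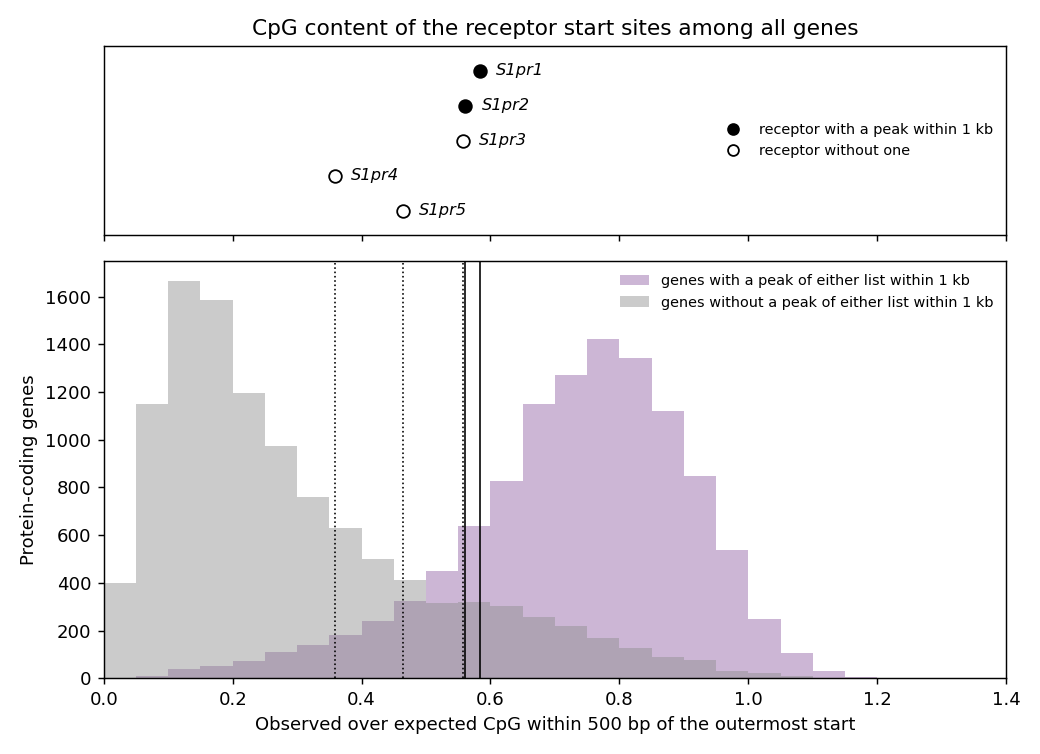
Ratio of observed to expected CpG within 500 bp of the outermost start site. The upper panel shows the 5 receptors (filled with and open without a peak within 1 kb), and the lower panel the number of protein-coding genes with (purple) and without (grey) a peak of either list within 1 kb; the receptors lie between 0.359 and 0.584, in the range where both kinds of gene occur.

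Among the 1460 genes with a ratio from 0.5 up to 0.6 and a GC content above 50%, the range of S1pr1, S1pr2 and S1pr3, 61.5% had a DOP-treated peak within 1 kb and 60.2% an untreated one. The 2 receptors of these 3 with a peak are thus near the share of all such genes.

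The lysophosphatidic acid receptors, of which Lpar1, Lpar2 and Lpar3 are the closest relatives of the S1P receptors, were counted beside them. Of the 6 genes 4 had a peak within 10 kb in each list, where 57.7% of all genes did with DOP and 56.9% without. In each list 3 had one nearest to their own start, against 52.3% and 51.4% of all genes, so both counts are near the usual share. The median was 1.5 peaks with DOP and 1 without, where the median of all genes was 1 in both lists. Lpar1 had 2 DOP-treated and 3 untreated peaks, Lpar2 had 2 and 2, and Lpar4 had 2 and 1, whereas Lpar3 and Lpar5 had 0. The Lpar4 peaks were weak, at up to percentile 9.18 with DOP and 10.0 without. The peak of Lpar6 was nearest to another gene.

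The genes that pass the receptors' signal on were counted in the same way. Of the 7 genes for G protein alpha subunits that these receptors couple to, 6 had peaks in each list, with a median of 4, where 57.7% of all genes had a peak with DOP and 56.9% without. In both lists Gnai2 and Gnaq had 5, Gna11 had 4 and Gna12 had 2, while Gna13 had 4 with DOP and 3 without and Gnai3 had 3 and 4. Of the Gna13 peaks 3 with DOP and 2 without were nearest to its own start. Gnai1, which encodes an inhibitory subunit, had 0. Of 14 genes further downstream, 11 had DOP-treated and 13 untreated peaks, with a median of 3 in both lists. Peaks nearest to their own start were found at 11 and 12 of them, against 52.3% and 51.4% of all genes. Rac1, a small GTPase activated below S1pr1, had 2 peaks with DOP and 4 without, and Rhoa, its counterpart below S1pr2, had 4 and 5. Of the Rhoa peaks only 2 with DOP and 3 without were nearest to its own start. Rock2, a kinase activated by Rhoa, had 5 and 2. Plcb2 and Plcb4, phospholipase genes of the Gq pathway, were the 2 genes of the 14 with a peak in 1 list only, a state found at 4.01% of all genes. Both had 0 with DOP and 1 without, but the Plcb2 peak was nearest to another gene and the Plcb4 peak ranked at percentile 1.89. Plcb1 had 0 in both.

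Among 6 genes for S1P carriers and exporters, 5 had a DOP-treated peak and 4 an untreated one, with medians of 2 and 2.5, beside the same 57.7% and 56.9% of all genes. Counting peaks nearest to their own start, 4 and 3 did, against 52.3% and 51.4% of all genes. Spns2, the main S1P exporter of endothelial cells, had 0 in both lists, and Mfsd2b, the exporter of red blood cells and platelets, had 1 weak peak with DOP at percentile 13.3 and 0 without. Abca1 had 3 and 3 and Abcc1 had 3 and 4. The peaks near Apom, the S1P carrier of plasma, were nearest to other genes. Of the 8 genes that make or break down S1P, 7 had peaks in each list, with medians of 2 and 2.5, and Sgpp2, an S1P phosphatase gene, had none. Sgpl1, which encodes SPL, had 4 peaks with DOP and 5 without, and the kinase gene Sphk1 had 3 and 2.

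The receptors are also known by the cell types that use them, so markers of those types were counted too, beside the 57.7% and 56.9% of all genes with a peak and the 4.01% with one in 1 list only. Among the neural progenitor markers Vim, an intermediate filament gene that many other cells also use, had peaks, 3 with DOP and 4 without. Nes, Sox2 and Pax6, which are more specific to the labelled cell type, had 0 in both lists. Of 5 endothelial markers, the cells of S1pr1, 1 had a peak with DOP, Kdr at percentile 20.6, and 0 without. Of 5 blood cell markers 0 had one with DOP and 1 without, Spi1 at percentile 7.88. Of 4 oligodendrocyte markers, the cells of S1pr5, Mbp alone had peaks, 2 with DOP at up to percentile 7.58. Astrocyte markers gave 1 of 3 in each list, Slc1a2, at up to percentile 10.1 with DOP and 6.54 without. Markers of mature striatal neurons gave 1 of 5, Ppp1r1b, with 4 peaks in each list at up to percentiles 80.2 and 85.4. Of these Ppp1r1b peaks 2 with DOP and 1 without were nearest to its own start. In bulk chromatin, a mark in few of the cells and a weak mark in all of them cannot be told apart.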

How the data were processed

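Per the paper's methods, the authors used Bowtie 2 for alignment to mm9 and GPS for peaks, with 1 list per condition. The submitters' processing notes name BWA 0.7.10 instead, and the track lines of the lists name GEM. How the samples of a condition and the IgG sample entered the call, the threshold and the depth are not given in the sources used here. Peaks were used as deposited, with no further filter, and the lists hold more peaks than the methods state, for a reason not given in those sources. The deposited score of each peak was used only to rank peaks within its list. All 21 chromosomes of the lists matched the NCBIM37 assembly, with 0 peaks past an end. Peak centres were taken from the lists, and start sites from every GENCODE vM1 transcript of a protein-coding gene. A peak was near a gene within 10 kb of a start, and belonged to the gene with the nearest start. Peaks were shared when intervals overlapped by at least 1 bp, and paired when each was also the other's nearest. Counts were compared with those over all 22380 genes, with no test. The counting was tested on simulated data. Python 3.11.15 and matplotlib 3.10.9 were used.

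All 5 receptors were named, with the genes of the lists given. Receptors, lists and rules were chosen with earlier results of these data known, and the paired ranks, the sides of peaks, the background of shared peaks and the class of CpG ratio from 0.5 to 0.6 were added after the receptors' values were seen. Alternatives were other windows, nearest start only, upstream only, other sets of start sites, score limits and rules for sharing. Spi1 is listed as Sfpi1 in the annotation. The IgG sample was not analysed here, and 1 progenitor marker is not reported here.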

Additional observations from a re-analysis of the deposited data

How the results depend on the processing

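No paired analysis was possible because the authors deposited a single call for each condition, and for the same reason no replicate could be left out. In both lists the count of receptors with a peak was 2 in place of 4 with windows of 1 kb and 2 kb and with peaks nearest to the receptor's own start only, and 1 with peaks upstream of a start only, namely the S1pr1 peak, which lies upstream of the inner start. Receptor peaks, in all and shared, were 4 in each list at 1 kb and 2 kb, 5 with nearest starts only and 1 upstream only, as fewer peaks enter by construction. The other settings kept these counts within 1.5 times, with 9 to 11 shared DOP-treated peaks under the other rules for sharing. Of 166 values under 13 settings, 120 stayed within 1.5 times, and 22 of the 46 that moved were counts of a single receptor, among them S1pr1, which lost its untreated peak in the top 50% of the list by score. Unknown depth limits statements on receptors without a peak.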
